A study of Mus musculus with 10 samples.

Results

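Genes that make, break down and sense prostaglandins and leukotrienes were followed in the lungs of ICR mice kept in hyperoxia or room air from birth. The 10 genes are Ptgs1, Ptgs2, Ptges, Ptgds, Hpgd, Ptger4, Alox5, Alox5ap, Ltc4s and Alox15, chosen by name, and every probe set annotated with exactly that symbol was taken. Of the 10, 9 had such a probe set, 15 probe sets in all, and 9 were among the 14988 genes kept for testing. Ptgs1, the constitutive cyclooxygenase, was not analysed here.

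The mice modelled bronchopulmonary dysplasia, the chronic lung disease of oxygen-treated preterm infants. Pups of pooled litters were assigned at random within 12 h of birth to 80% oxygen or to room air, and lungs were taken at postnatal day 14 (P14) or day 29 (P29). The groups were P14 hyperoxia (3 arrays), P14 room air (2 arrays), P29 hyperoxia (3 arrays) and P29 room air (2 arrays). All were of the outbred ICR strain, and the room-air mice carry the label WT. Nursing dams were rotated between the chambers every 24 h, and dissected lungs were washed in saline before RNA was extracted. The labels do not say whether an array held 1 animal or several, so p-values cover only how these samples vary, and that variation may be technical.

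Prostaglandins and leukotrienes are signalling lipids made from arachidonic acid, which phospholipase A2 enzymes free from membranes. Cyclooxygenases (Ptgs1 and Ptgs2) turn it into prostaglandin H2, and terminal synthases such as Ptges and Ptgds turn that into prostaglandins E2 and D2. The lung takes up and inactivates circulating prostaglandins through the transporter Slco2a1 and the dehydrogenase Hpgd. In the other branch arachidonate lipoxygenase Alox5, with its partner protein Alox5ap, makes leukotriene A4, and Ltc4s joins glutathione to it to give leukotriene C4, a constrictor of airways and vessels. These lipoxygenase enzymes are found mainly in myeloid cells and mast cells.

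The promoters of the genes with the largest differences are shown first, because Ptgs2 and Ptger4 moved up together while Hpgd moved down. Each line gives 250 bases before the RefSeq start in GRCm38.p6, in the direction of the gene. Ptgs2 lies at chr1:150099781-150100030 on the plus strand, Ptger4 at chr15:5244188-5244437 on the minus strand, and Hpgd at chr8:56294302-56294551 on the plus strand. Capitals mark matches on either strand to the motifs named in the next paragraph.
Ptgs2: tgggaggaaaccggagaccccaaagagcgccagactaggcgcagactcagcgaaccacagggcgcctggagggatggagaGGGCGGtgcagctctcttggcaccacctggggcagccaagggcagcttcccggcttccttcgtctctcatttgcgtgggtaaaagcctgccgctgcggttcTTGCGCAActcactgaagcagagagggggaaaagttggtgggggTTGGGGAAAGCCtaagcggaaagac
Ptger4: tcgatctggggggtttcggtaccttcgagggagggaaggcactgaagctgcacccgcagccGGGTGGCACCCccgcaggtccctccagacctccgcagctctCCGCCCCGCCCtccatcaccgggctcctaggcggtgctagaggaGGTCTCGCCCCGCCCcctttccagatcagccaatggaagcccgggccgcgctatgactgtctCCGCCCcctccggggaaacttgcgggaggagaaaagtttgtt
Hpgd: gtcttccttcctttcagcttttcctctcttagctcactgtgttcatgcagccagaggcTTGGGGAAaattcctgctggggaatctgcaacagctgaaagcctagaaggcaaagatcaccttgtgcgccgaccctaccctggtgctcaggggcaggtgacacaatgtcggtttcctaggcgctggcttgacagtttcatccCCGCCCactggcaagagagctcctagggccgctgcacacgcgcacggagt

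The motifs searched were the TATA box (TATAAA), the core of the cyclic AMP response element (TGACGT), C/EBP (TTNNGNAA), NF-kB (GGG and CC with any 5 bases between them), the E-box (CACGTG), AP-1 (TGANTCA) and the GC box (GGGCGG). RefSeq promoters were found for 8 of the 10 genes, and for Alox5ap and Alox15 none is shown. The Ptgs2 window held 2 C/EBP matches, 1 NF-kB match that overlaps one of them, and 1 GC box. The Ptger4 window held 4 GC boxes and 3 NF-kB matches, and that of Hpgd held 1 C/EBP match and 1 GC box. Counted from the RefSeq start, the Ptger4 NF-kB matches at -189 to -180 and -188 to -179 overlap. Its GC boxes at -148 to -143 and -143 to -138 share a base. Among 32851 promoter windows of the same length, C/EBP letters were in 36.8%, NF-kB letters in 45.8% and a GC box in 32.7%. TATA, cyclic AMP, E-box and AP-1 letters, present in 12.4%, 6.5%, 6.0% and 6.7% of windows, were in none of the 3 shown. Bases past the RefSeq start or further upstream were not searched, so such letters may lie there. A match describes the letters and does not show that a factor binds.

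Values are the authors' log2 values per probe set, on which a difference of 1 is a doubling. Their level depends on the probes, so levels are compared between samples and never between genes. Each gene is given by its brightest probe set on average, and its other probe sets serve as a check. Differences were tested with limma over all 14988 genes, and a call means a Benjamini-Hochberg adjusted p under 0.05. Most genes tested passed that threshold in hyperoxia, so a call alone sets no gene apart. At P14, 55% of genes were called, 32.3% higher and 22.8% lower, and at P29 59.7% were called, 34.2% higher and 25.6% lower. Of the 9 genes measured, 2 were higher and 7 lower at P14, and 2 were higher and 6 lower at P29. The lower genes include Alox15, which was kept for testing through its room-air arrays alone and so had to differ. The median difference of the 9 was -0.40 at P14 and -0.55 at P29, beside 0.04 at both ages over all genes tested. Arrays of hyperoxia and room air did not overlap for the 2 higher and 7 lower genes at P14, as for 71.3% of all genes (39.6% higher, 31.7% lower). At P29 they did not overlap for 2 higher and 6 lower genes, as for 74.3% of all (41.2% higher, 33.1% lower). The same 2 genes, Ptgs2 and Ptger4, were higher at both ages, and across all genes 22.3% were higher at both.

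The hyperoxia effect itself was tested for a difference between the ages. Of the 9 genes, 1 (Ptges) had a higher value of the effect at P29 and 2 (Ptgs2 and Hpgd) a lower one, beside 11% and 11.6% of all genes, 22.5% in either direction. Between ages, 3 of the 9 were higher and 1 lower at P29 in hyperoxia, beside 15.4% and 11.7% of all genes, 27.1% in either direction. In room air 6 were higher and 1 lower at P29, beside 22.2% and 19.1%, 41.3% in either direction. The gene lower with age in room air was Ptges (-0.37 ± 0.13, SE, limma adjusted p = 0.0383), a call that ended without P14 room air replicate 1 (0.197), P29 room air replicate 1 (0.0932) or replicate 2 (0.137), P14 hyperoxia replicate 3 (0.0526) or P29 hyperoxia replicate 3 (0.0516). The genes called lower at P14 numbered 4 without P14 room air replicate 1.

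Libraries differed in ways that run with the groups. The actin control's 3' minus 5' difference, which grows with RNA degradation, lay between 1.33 and 2.21 in hyperoxia samples and between 0.32 and 0.74 in room-air samples. With that difference as a term in the fit, Ptgs2 and Ptger4 stayed higher at both ages. The genes called lower then numbered 2 at P14, Ptges and Ptgds, and 4 at P29, Ptgds, Hpgd, Alox5 and Alox5ap. For the lost calls at P14 the difference in this fit was -0.52 for Hpgd (limma adjusted p = 0.222), -0.46 for Alox5 (0.216), -0.56 for Alox5ap (0.0851) and -0.55 for Alox15 (0.258). That of Ltc4s at P14 was 0.062 (0.909). At P29 it was -0.46 for Ptges (0.232) and -0.74 for Alox15 (0.0998). The control's ranges in hyperoxia and room air did not overlap, so this fit cannot tell RNA quality and exposure apart. Sex-linked transcripts were male on all P14 arrays and female on both P29 room-air arrays, while P29 hyperoxia replicate 1 was male, replicate 2 female and replicate 3 carried both. In room air age and sex of the RNA thus coincide, so no room-air difference between ages can be told apart from one of sex. All 6 lung markers were well measured, with a summed log2 level of 16.36 to 16.42 in P14 hyperoxia, 16.38 to 16.46 in P14 room air, 16.48 to 16.55 in P29 hyperoxia and 16.82 to 16.85 in P29 room air. Of these markers 1 was higher and 2 lower at P14, and 0 higher and 4 lower at P29.

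**Figure D1:**
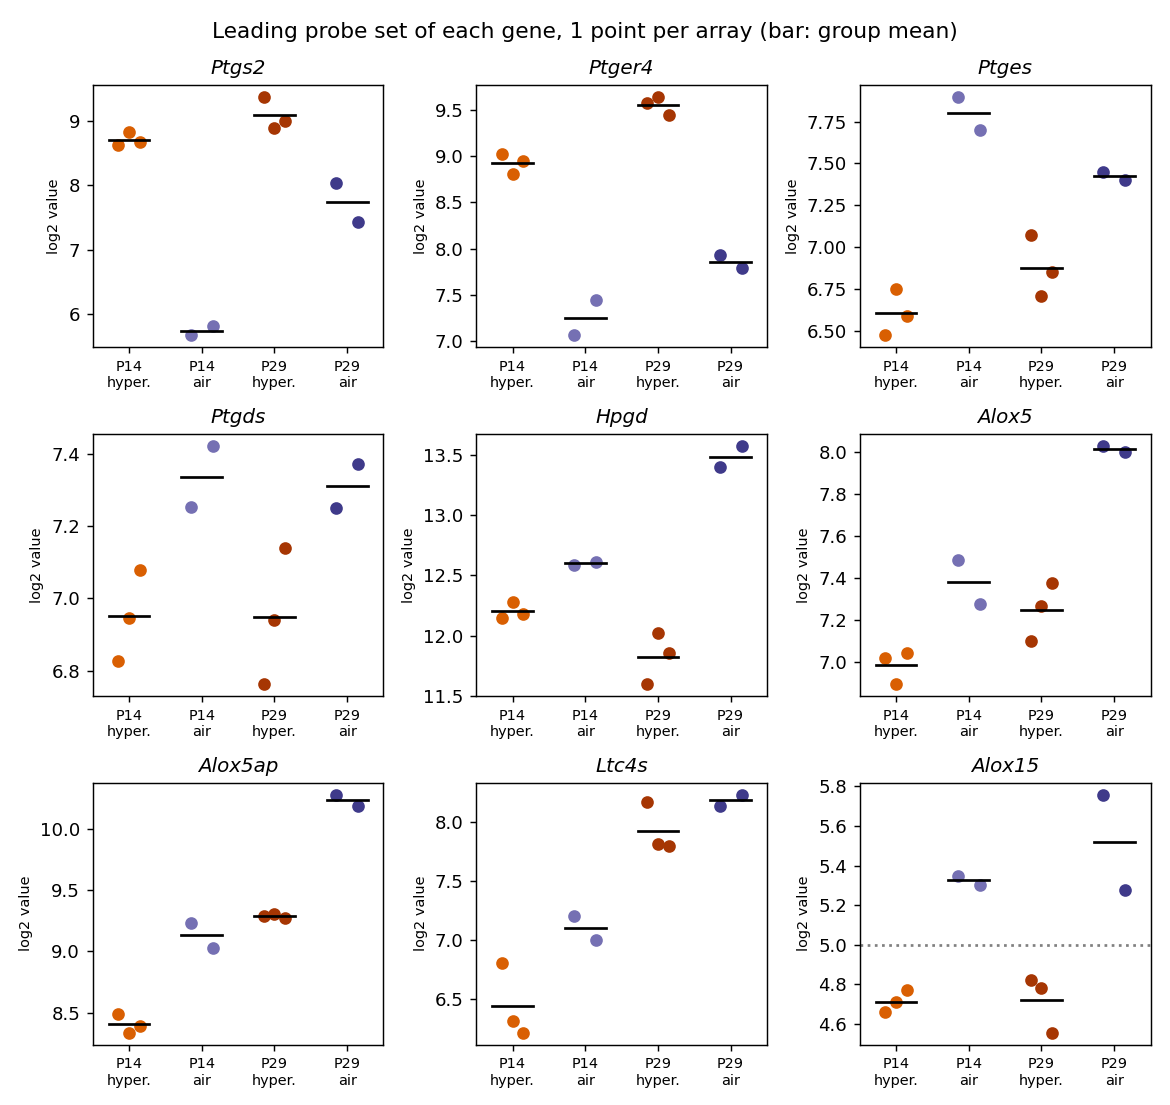
Log2 value (vertical axis) of the leading probe set of each of the 9 measured genes on the 10 arrays, 1 point per array, with bars at the group means; the dotted line on the Alox15 panel is the floor of 5. Ptgs2 and Ptger4 stand higher in hyperoxia at each age, and Alox15 lies under the floor on all 6 hyperoxia arrays.

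Ptgs2, the inducible cyclooxygenase that starts prostaglandin synthesis in inflamed or stressed tissue, was higher in hyperoxia at both ages. At P14 it read 8.62, 8.82 and 8.66 in hyperoxia, against 5.68 and 5.81 in room air. At P29 it read 9.37, 8.88 and 8.99 in hyperoxia, against 8.04 and 7.43 in room air. The groups did not overlap at either age, and P14 room air stood far below the other groups. The difference was 2.96 ± 0.17 (SE) at P14, a 7.78-fold higher level (limma adjusted p = 8.05e-07), and 1.35 ± 0.17 at P29, 2.54-fold (adjusted p = 7.38e-05). The P29 effect was smaller than the P14 effect by a tested difference of -1.61 ± 0.25 (adjusted p = 0.000935).

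Levels at the 2 ages differed more in room air than in hyperoxia. In room air Ptgs2 was 1.99 ± 0.19 (SE) higher at P29 than at P14, 3.98-fold (adjusted p = 1e-05), and in hyperoxia it was 0.38 ± 0.16 higher (adjusted p = 0.0973). The adjusted p of the hyperoxia value was 0.041 without either of the P29 room-air arrays. The age comparisons share their arrays with the hyperoxia comparisons and are no separate evidence. In room air they also set male RNA at P14 against female RNA at P29. From the top the order of means was P29 hyperoxia, P14 hyperoxia, P29 room air and P14 room air, and no neighbours in that order overlapped.

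The second, dimmer Ptgs2 probe set did not show the same effect. It read 5.72, 5.75 and 5.51 in P14 hyperoxia, against 5.33 and 5.27 in P14 room air. At P29 the values were 6.05, 5.64 and 6.17 in hyperoxia, against 6.64 and 6.10 in room air. Fitted over all probe sets, its difference was 0.36 ± 0.18 at P14 (adjusted p = 0.131) and -0.42 ± 0.18 at P29 (adjusted p = 0.0739), with overlapping arrays at P29. Between ages in room air this probe set was also higher at P29, by 1.07 ± 0.19 (adjusted p = 0.00174). The P29 effect minus the P14 effect was -0.78 ± 0.25 on this probe set (limma adjusted p = 0.0787). Of the 2 Ptgs2 probe sets, 1 thus gave the calls in hyperoxia.

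Ptger4 encodes EP4, a prostaglandin E2 receptor that raises cyclic AMP and takes part in closure of the ductus arteriosus at birth. It read 9.03, 8.80 and 8.95 in P14 hyperoxia, against 7.06 and 7.44 in P14 room air. The P29 values were 9.58, 9.64 and 9.44 in hyperoxia, against 7.93 and 7.79 in room air. Every hyperoxia array lay above every room-air array, across both ages. The difference was 1.68 ± 0.12 (SE) at P14, 3.20-fold (limma adjusted p = 2.62e-06), and 1.70 ± 0.12 at P29, 3.24-fold (adjusted p = 1.13e-06). The effects at the 2 ages differed by 0.02 ± 0.17, with a 95% interval of -0.35 to 0.39 (adjusted p = 0.954). Ptger4 was also higher at P29 than at P14, by 0.63 ± 0.11 in hyperoxia and by 0.61 ± 0.13 in room air (adjusted p = 0.0014 and 0.00298). The room-air call ended with a Y-linked term in the fit (0.54, adjusted p = 0.0647), where age and sex of the RNA coincide, and on the second probe set (0.20, adjusted p = 0.389). A second probe set, under the log2 floor of 5 on every array, gave 0.60 ± 0.13 and 0.91 ± 0.13 at the 2 ages.

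Over the 10 arrays the genes most like Ptgs2 in pattern were Cabcoco1 (Pearson r = 0.992), Aldh1a7 (0.992) and Insr (0.988). Those most like Ptger4, the gene of largest difference at P29, were Spag1 (0.998), Gpam (0.995) and Zfp54 (0.994). Ptgs2 and Ptger4 correlated with each other at r = 0.928. These correlations describe 10 arrays that fall into 4 groups, so the group differences dominate them.

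Ptges and Ptgds were lower at both ages, as were 14.2% of all genes. Of 5 further prostanoid synthases tested 0 were called at P14, where 55% of all genes were. At P29 1 of them was higher and 2 were lower, beside 34.2% and 25.6% of all genes. Ptges, the inducible microsomal synthase that makes prostaglandin E2 from the product of the cyclooxygenases, read 6.47, 6.75 and 6.59 in P14 hyperoxia, against 7.90 and 7.70 in P14 room air. At P29 it read 7.07, 6.70 and 6.85 in hyperoxia, against 7.45 and 7.40 in room air. The groups did not overlap, and Ptges thus ran opposite to the leading Ptgs2 probe set at both ages. The second Ptgs2 probe set gave 0.36 at P14 and -0.42 at P29, where its sign was that of Ptges. The Ptges difference was -1.19 ± 0.12 (SE) at P14, 2.29-fold lower (limma adjusted p = 2.11e-05), and -0.55 ± 0.12 at P29, 1.46-fold lower (adjusted p = 0.00219).

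The other 2 Ptges probe sets were also lower, by values of -0.58 and -0.78 at P14 and of -0.35 and -0.68 at P29, the value of -0.35 with an adjusted p of 0.0616. The effect on the leading probe set was smaller in size at P29, by 0.64 ± 0.17 (adjusted p = 0.0179). That call ended without P14 room air replicate 1 (adjusted p = 0.0656) or without P29 room air replicate 2 (adjusted p = 0.0574). The other probe sets gave 0.23 and 0.11 for it, with adjusted p of 0.564 and 0.799.

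Ptgds, a secreted prostaglandin D2 synthase that also carries lipophilic molecules, read 6.83, 6.95 and 7.08 in P14 hyperoxia, against 7.25 and 7.42 in P14 room air. At P29 the values were 6.76, 6.94 and 7.14 in hyperoxia, against 7.25 and 7.37 in room air. The arrays did not overlap, but the margins were narrow. The difference was -0.39 ± 0.12 at P14 (adjusted p = 0.0168) and -0.36 ± 0.12 at P29 (adjusted p = 0.0203). At P14 the call ended without P14 room air replicate 2 (adjusted p = 0.118) or P14 hyperoxia replicate 1 (0.0568). At P29 it ended without P29 room air replicate 2 (0.123) or P29 hyperoxia replicate 1 (0.0705). Room-air levels at the 2 ages overlapped, as did hyperoxia levels, and a second probe set, mostly under the floor, gave -0.24 and -0.22.

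Hpgd, the dehydrogenase that starts the inactivation of prostaglandins, fell most at P29. It read 11.60, 12.02 and 11.86 in P29 hyperoxia, against 13.40 and 13.58 in P29 room air. At P14 it read 12.14, 12.28 and 12.18 in hyperoxia, against 12.59 and 12.61 in room air. The P29 difference was -1.66 ± 0.12 (SE), 3.16-fold lower (limma adjusted p = 1.11e-06), and the P14 difference -0.40 ± 0.12 (adjusted p = 0.0133). The P29 effect was lower than the P14 effect by a tested -1.26 ± 0.16 (adjusted p = 0.000365).

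The age comparison of Hpgd had opposite signs in the 2 gases. In room air it was 0.89 ± 0.13 higher at P29 than at P14 (adjusted p = 0.000199), and in hyperoxia its difference was -0.38 ± 0.10 (adjusted p = 0.0202). The hyperoxia call ended without P14 hyperoxia replicate 2 (0.0758) or P29 hyperoxia replicate 1 (0.0704). It also ended on the second probe set (-0.28 ± 0.16, limma adjusted p = 0.32), whose arrays overlapped. The room-air value sets male RNA at P14 against female RNA at P29. The second Hpgd probe set read 8.85, 9.15 and 8.70 in P29 hyperoxia, against 9.68 and 10.21 in P29 room air. It gave -1.04 ± 0.18 at P29 (adjusted p = 0.000927), but 0.11 ± 0.18 at P14 (adjusted p = 0.679), where its arrays overlapped. The P14 call of Hpgd also ended without either P14 room-air array (adjusted p = 0.0585 without replicate 1 and 0.0582 without replicate 2). On P29 hyperoxia replicate 2 alone, the array with female RNA like the room-air pair, the P29 difference was -1.46, and that of Ptgs2 was 1.15.

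**Figure D2:**
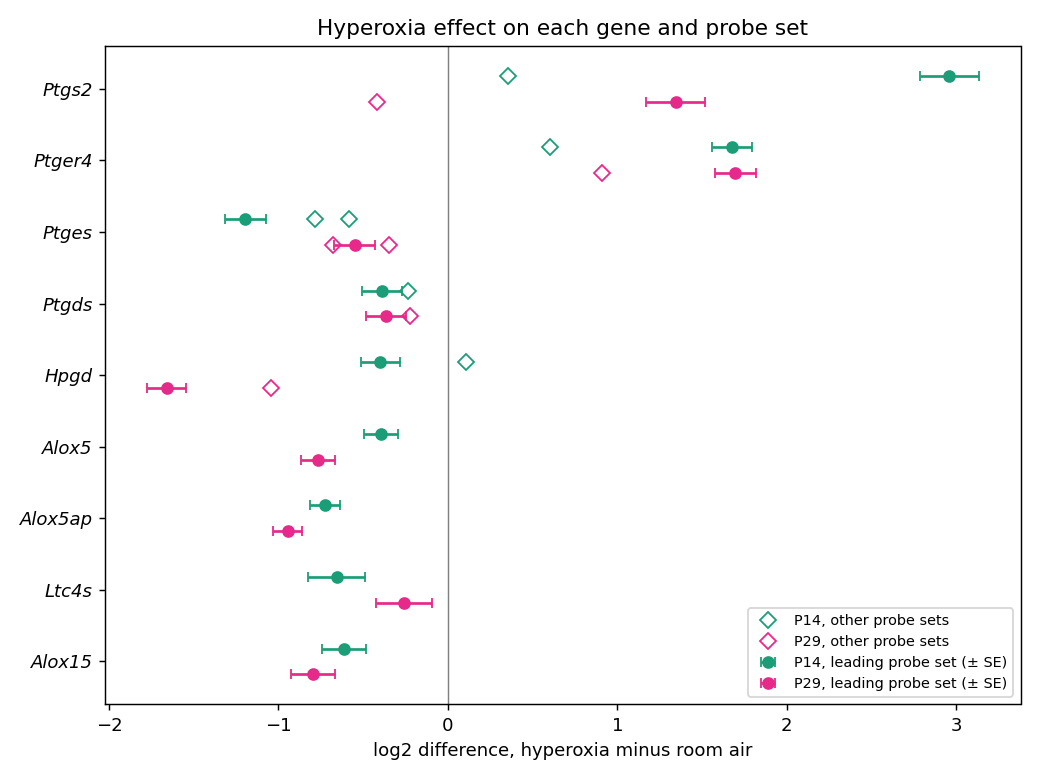
Log2 difference, hyperoxia minus room air (horizontal axis), for each gene at P14 and P29; filled points are the leading probe set with its SE and open diamonds the other probe sets. The second Ptgs2 probe set lies at 0.36 and -0.42, far from 2.96 and 1.35, while those of Ptger4 and Ptges keep the direction of the leading one.

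Of the 3 genes of leukotriene synthesis, Alox5, Alox5ap and Ltc4s, 3 were lower in hyperoxia at P14 and 2 at P29. Across all genes 22.8% were lower at P14 and 25.6% at P29. Alox5ap, the membrane protein that presents arachidonic acid to Alox5, read 8.49, 8.34 and 8.39 in P14 hyperoxia, against 9.23 and 9.03 in P14 room air. The P29 values were 9.29, 9.30 and 9.27 in hyperoxia, against 10.28 and 10.19 in room air. The groups were well separated at both ages, and P29 hyperoxia stood just above P14 room air. The difference was -0.72 ± 0.09 (SE) at P14, 1.65-fold lower (limma adjusted p = 6.07e-05), and -0.94 ± 0.09 at P29, 1.93-fold lower (adjusted p = 6.53e-06).

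Alox5, the lipoxygenase that commits arachidonic acid to leukotrienes, read 7.02, 6.90 and 7.05 in P14 hyperoxia, against 7.49 and 7.28 in P14 room air. At P29 it read 7.10, 7.27 and 7.37 in hyperoxia, against 8.03 and 8.002 in room air. Its arrays did not overlap within an age, while P29 hyperoxia overlapped P14 room air. The difference was -0.39 ± 0.10 at P14 (adjusted p = 0.00668) and -0.77 ± 0.10 at P29, 1.70-fold lower (adjusted p = 8.05e-05). Without P14 room air replicate 1 the P14 call ended (adjusted p = 0.0779), and the difference between the ages, -0.37 ± 0.14 (adjusted p = 0.0841), then passed at 0.0471.

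Ltc4s, the synthase of leukotriene C4, was called lower at P14 and not at P29. It read 6.80, 6.32 and 6.21 in P14 hyperoxia, against 7.20 and 7.00 in P14 room air. At P29 the values were 8.17, 7.81 and 7.80 in hyperoxia, against 8.14 and 8.23 in room air, and these arrays overlapped. The difference was -0.66 ± 0.17 at P14 (adjusted p = 0.0065) and -0.26 ± 0.17 at P29, with a 95% interval of -0.63 to 0.11 (adjusted p = 0.201). The effects at the 2 ages were not shown to differ (0.40 ± 0.24, adjusted p = 0.262, and 0.0487 without P14 hyperoxia replicate 1). The P14 call ended without P14 room air replicate 1 (adjusted p = 0.0695), and with the actin term the difference was 0.062.

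All 3 genes were higher at P29 than at P14 in room air, where 22.2% of genes were. Age and sex of the RNA coincide in that comparison. Ltc4s was higher by 1.08 ± 0.18 (SE), Alox5ap by 1.10 ± 0.09 and Alox5 by 0.63 ± 0.11 (limma adjusted p = 0.000641, 4.3e-06 and 0.000769). In hyperoxia, where 15.4% of genes were higher at P29, Ltc4s was higher by 1.48 ± 0.15 and Alox5ap by 0.88 ± 0.08 (adjusted p = 5.26e-05 and 1.98e-05). Alox5 differed there by 0.26 ± 0.09 (adjusted p = 0.053), and its adjusted p was 0.0421 without either P14 room-air array and 0.0273 without P29 hyperoxia replicate 1. Across the 10 arrays Alox5 and Alox5ap correlated at r = 0.9385 and Alox5ap and Ltc4s at r = 0.889, over arrays that share the group structure.

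Alox15, the mouse leukocyte-type lipoxygenase of macrophages and eosinophils, was near the floor. It read 4.66, 4.71 and 4.77 in P14 hyperoxia, against 5.35 and 5.30 in P14 room air. The P29 values were 4.82, 4.78 and 4.56 in hyperoxia, against 5.76 and 5.28 in room air. Only the 4 room-air arrays reached the floor of 5, so Alox15 was kept for testing through them alone and its differences of -0.61 ± 0.13 and -0.80 ± 0.13 (SE) support nothing further.

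Some markers of cells that carry these enzymes differed between hyperoxia and room air, in directions that varied within and between cell types. Counts of called markers, here and in the marker paragraphs that follow, stand beside the shares of all genes called. Those were 32.3% higher and 22.8% lower at P14, and 34.2% and 25.6% at P29. In whole-lung RNA fewer cells of a type and less RNA per cell cannot be told apart. Of 9 neutrophil markers 7 were tested, and all 7 were lower at both ages. Among them was Cxcr2, whose means lay under the floor in hyperoxia (4.64 at P14, 4.71 at P29) and over it in room air (5.08 at P14, 5.57 at P29). The filter favoured a difference in that direction, so Cxcr2 adds no separate support to the count. The summed log2 level of the 7 was 10.32 to 10.50 in P14 hyperoxia and 12.28 to 12.31 in P14 room air. At P29 it was 9.75 to 9.83 in hyperoxia and 12.43 to 13.06 in room air. Of 8 macrophage markers 3 were higher and 3 lower at P14, and 0 were higher and 4 lower at P29. Their summed level was 12.18 to 12.32 in P14 hyperoxia and 12.27 to 12.34 in P14 room air, and 12.76 to 13.08 in P29 hyperoxia and 13.75 to 13.85 in P29 room air. Their mean log2 level was 8.08 to 8.45 in P14 hyperoxia and 8.61 to 8.81 in P14 room air. At P29 it was 9.01 to 9.35 in hyperoxia and 9.79 to 9.87 in room air.

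Mast cell markers ran the other way for 6 of 7 tested genes at P14 and 4 at P29, with the chymase Cma1 at 2.99 and 2.36 and the protease Cpa3 at 2.22 and 1.75. Another of the 7, Ms4a2, averaged over the floor in hyperoxia (5.11 at P14, 5.08 at P29) and under it in room air (4.66 at P14, 4.70 at P29). The filter favoured a difference in that direction, so Ms4a2 adds no separate support to the counts. Kit, which other lung cells also express, was lower at both ages. The summed level of the 7 was 10.67 to 11.19 in P14 hyperoxia and 10.88 to 10.90 in P14 room air. At P29 it was 10.48 to 10.56 in hyperoxia and 11.36 to 11.47 in room air. A sum follows the brightest genes, and the mean log2 level of the 7 ran higher in hyperoxia. That mean was 7.19 to 7.82 against 6.48 to 6.57 at P14, and 7.05 to 7.17 against 6.84 to 6.85 at P29. Of 5 eosinophil markers, Prg2, Epx, Ccr3 and Il5ra lay below the floor and Siglecf, also an alveolar macrophage marker, reached it in P29 room air alone (4.09 to 4.34 in P29 hyperoxia, 6.79 to 7.25 in P29 room air). It was kept for testing through that group and so had to differ at P29, and at P14 it lay below the floor in both groups. The part of these cell types in the differences of Alox5, Alox5ap, Ltc4s and Alox15 was not tested.

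Platelet and megakaryocyte markers, 6 of 6 tested, had 2 higher and 3 lower at P14 and 2 higher and 4 lower at P29. Of 6 endothelial markers 1 was higher and 2 lower at P14, and 0 higher and 4 lower at P29, with a summed log2 level of 13.78 to 13.88 in P29 hyperoxia and 14.61 to 14.67 in P29 room air. Of neighbouring tissues, 3 heart markers had 1 higher at P14 and 1 higher and 2 lower at P29. The fat marker Adipoq was kept for testing through P29 room air alone and so had to differ there (4.28 to 4.99 in P29 hyperoxia, 7.05 to 7.98 in P29 room air), and the oesophageal keratin Krt4 was lower at P14. Their part in the results was not tested.

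The rest of the pathway was covered by a list of 43 further genes, of which 35 were tested, 4 had no probe set of their own symbol and 4 lay below the floor. At P14, 7 were higher and 10 lower, with a median of -0.06, and at P29, 7 were higher and 18 lower, with a median of -0.35, beside 0.04 over all genes. Of the 35 tested genes these counts stand beside the 32.3% higher and 22.8% lower of all genes at P14, and 34.2% and 25.6% at P29. The counts by role given below stand beside the same shares. Without P14 room air replicate 1 the lower genes at P14 numbered 6. With the actin term 4 were higher and 2 lower at P14, and 4 higher and 8 lower at P29. The 10 genes given in full next are those called at either age with a log2 difference of at least 0.8. Some genes of smaller difference are named beside them.

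Upstream of the cyclooxygenases, Pla2g4a, the cytosolic phospholipase A2 that releases arachidonic acid, was higher. It read 8.65, 8.62 and 8.62 in P14 hyperoxia, against 6.84 and 6.89 in P14 room air. At P29 it read 8.97, 9.05 and 9.10 in hyperoxia, against 8.07 and 8.10 in room air. Replicates were tight and no group overlapped another. The difference was 1.77 ± 0.07 (SE), 3.40-fold, at P14 and 0.95 ± 0.07, 1.94-fold, at P29 (limma adjusted p = 1.05e-07 and 2.1e-06). Of the other 5 phospholipases tested, 0 were called at P14 and 3 were lower at P29. One of the 3, Pla2g2d, was over the floor on 3 room-air arrays alone and was kept for testing through them.

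**Figure D3:**
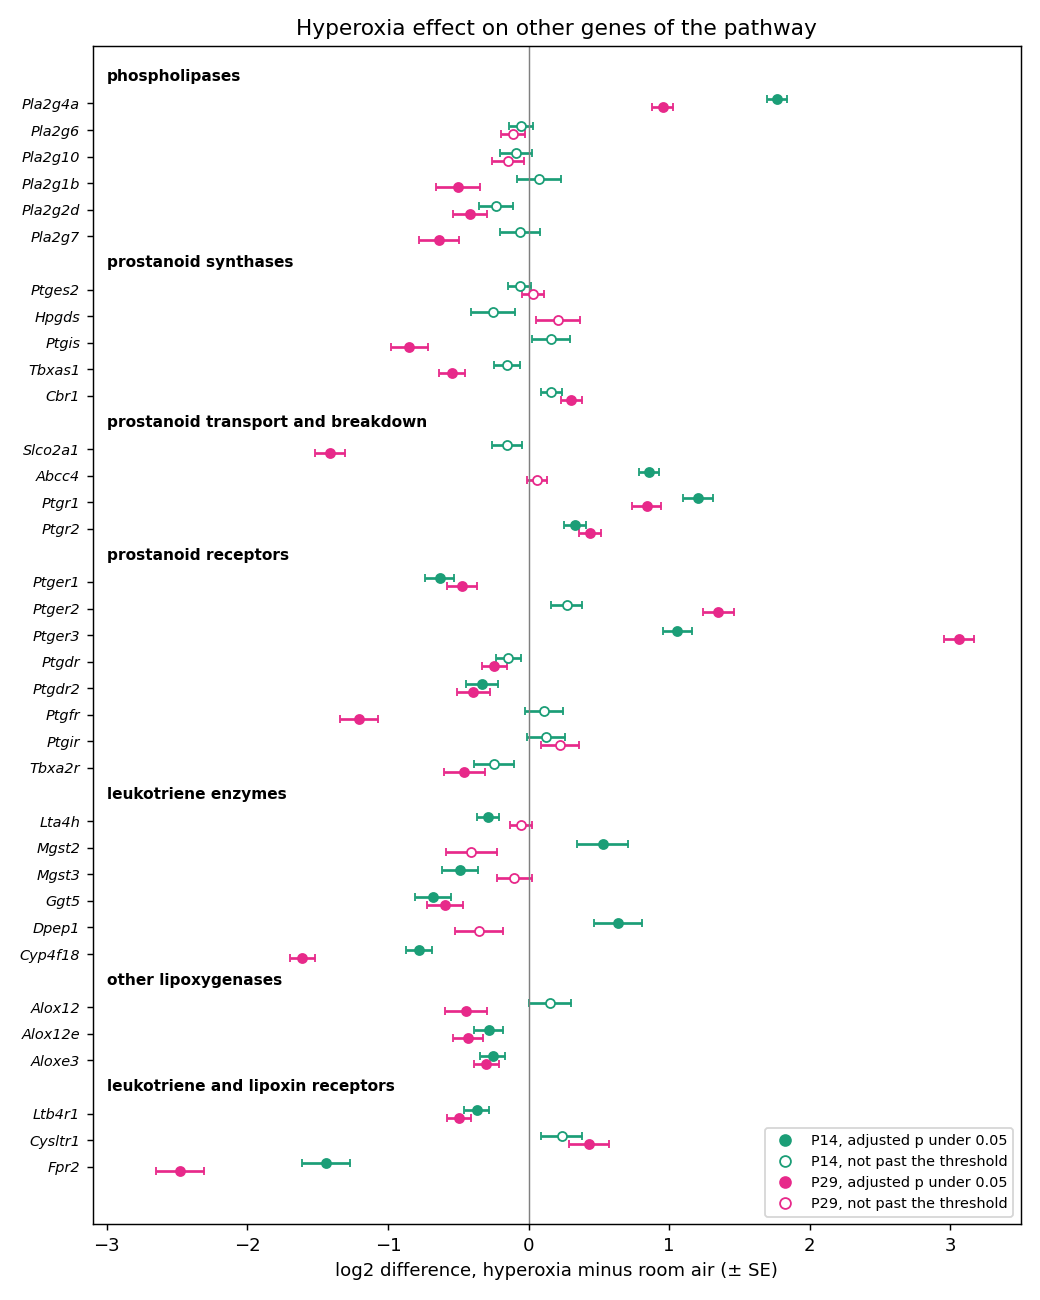
Log2 difference, hyperoxia minus room air, with its SE (horizontal axis), for the 35 other pathway genes tested, grouped by role, at P14 and P29; filled points passed an adjusted p of 0.05. Ptger3 reaches 3.06 at P29 and Fpr2 -2.48, the extremes on each side of 0.

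The receptors of prostaglandin E2 diverged. Ptger3, the EP3 receptor, which lowers cyclic AMP, read 8.83, 8.68 and 8.64 in P29 hyperoxia, against 5.60 and 5.71 in P29 room air. At P14 it read 8.56, 8.48 and 8.53 in hyperoxia, against 7.29 and 7.63 in room air. In hyperoxia its level was nearly flat between the ages (0.19 ± 0.09, SE, limma adjusted p = 0.154), while in room air its difference, P29 minus P14, was -1.81 ± 0.11 (adjusted p = 5.56e-07). The sex of the RNA also changed with age in room air. The hyperoxia difference was 1.06 ± 0.10 at P14 and 3.06 ± 0.10 at P29, 8.35-fold (adjusted p = 2.11e-05 and 1.93e-08). A second Ptger3 probe set, with a mean of 3.87, showed -0.05 and 0.00.

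Ptger2, the EP2 receptor, which like EP4 raises cyclic AMP, read 9.39, 9.19 and 9.27 in P29 hyperoxia, against 8.01 and 7.86 in P29 room air. The difference was 1.35 ± 0.11 (SE) at P29 (limma adjusted p = 3.21e-06) and 0.27 ± 0.11 at P14 (adjusted p = 0.0567, and 0.0105 without P14 room air replicate 2). Ptger1, the EP1 receptor, was lower at both ages, by values of -0.63 and -0.47. Ptgfr, the prostaglandin F receptor, read 6.58, 6.72 and 6.38 in P29 hyperoxia, against 7.71 and 7.83 in P29 room air, a difference of -1.21 ± 0.14 (adjusted p = 2.84e-05), and differed by 0.11 ± 0.14 at P14 (adjusted p = 0.515). Of the 8 further prostanoid receptors, 1 was higher and 2 lower at P14, and 2 higher and 5 lower at P29.

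Transport and breakdown genes split. Slco2a1, the transporter that takes prostaglandins into cells where Hpgd acts, read 10.52, 10.62 and 10.46 in P29 hyperoxia, against 11.78 and 12.11 in P29 room air. At P14 it read 10.94, 11.07 and 11.04 in hyperoxia, against 11.09 and 11.26 in room air. The P29 difference was -1.41 ± 0.11 (SE), 2.66-fold lower (limma adjusted p = 1.88e-06), and the P14 difference -0.16 ± 0.11 (adjusted p = 0.236). All 4 Slco2a1 probe sets were lower at P29, the other 3 by values of -0.79 to -2.62, but at P14 those 3 ran from -1.18 to 0.74 and give no common direction.

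Abcc4, an exporter that carries prostaglandins among other anions, was 0.86 ± 0.07 (SE) higher at P14 (limma adjusted p = 7.77e-06) and differed by 0.06 ± 0.07 at P29 (adjusted p = 0.499). Ptgr1, a reductase that acts on prostaglandin metabolites and leukotriene B4, was higher by 1.21 ± 0.10 at P14 and 0.84 ± 0.10 at P29 (adjusted p = 8.87e-06 and 5.42e-05). Ptgis, which makes the vessel-dilating prostacyclin, averaged 10.63 ± 0.06 in P29 hyperoxia (SD, n = 3) and 11.48 ± 0.29 in P29 room air (SD, n = 2), a limma difference of -0.85 ± 0.13 (adjusted p = 0.000301). At P14 Ptgis differed by 0.16 ± 0.13 (adjusted p = 0.321).

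Of 6 further leukotriene enzymes tested, 2 were higher and 4 lower at P14, and 0 higher and 2 lower at P29. The 3 tested receptors of leukotrienes and lipoxins had 2 lower at P14, and 1 higher and 2 lower at P29. The 2 enzymes higher at P14 were Dpep1 (0.64), a dipeptidase that trims leukotriene D4, and Mgst2 (0.53), a synthase of leukotriene C4. At P29 neither was called (-0.35 and -0.41). Cyp4f18, a cytochrome that inactivates leukotriene B4 in mouse neutrophils, read 5.20, 5.15 and 5.33 in P29 hyperoxia, against 6.80 and 6.88 in P29 room air, a difference of -1.61 ± 0.09 (SE, limma adjusted p = 2.88e-07). At P14 its difference was -0.78 ± 0.09 (adjusted p = 4.87e-05). A second Cyp4f18 probe set, with a mean of 4.68, gave -0.07 at P29 and -0.36 at P14 (adjusted p = 0.625 and 0.0265). Fpr2, a receptor of formyl peptides and lipoxins on myeloid cells, read 7.41, 7.16 and 6.89 in P29 hyperoxia, against 9.56 and 9.72 in P29 room air. Its difference was -2.48 ± 0.17 at P29, 5.59-fold lower, and -1.44 ± 0.17 at P14, 2.71-fold lower (adjusted p = 1.02e-06 and 6.07e-05). With the actin term its P14 difference was -1.48, with an adjusted p of 0.0511. Ltb4r1, the high-affinity leukotriene B4 receptor, was lower by values of -0.37 and -0.49, and Cysltr1, a receptor of leukotriene C4 and its products, differed by 0.24 at P14 and 0.43 at P29, where it was called higher (adjusted p = 0.023).

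Cyp4f18 and Fpr2 were lower in hyperoxia at both ages, as were 14.2% of all genes. The tested neutrophil markers, whose summed levels are given above, were too, and the part of those cells was not tested. Of 5 other lipoxygenases listed, 2 lay below the floor, and of the 3 tested 2 were lower at P14 and 3 at P29, with differences between -0.30 and -0.45 at P29.

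**Figure D4:**
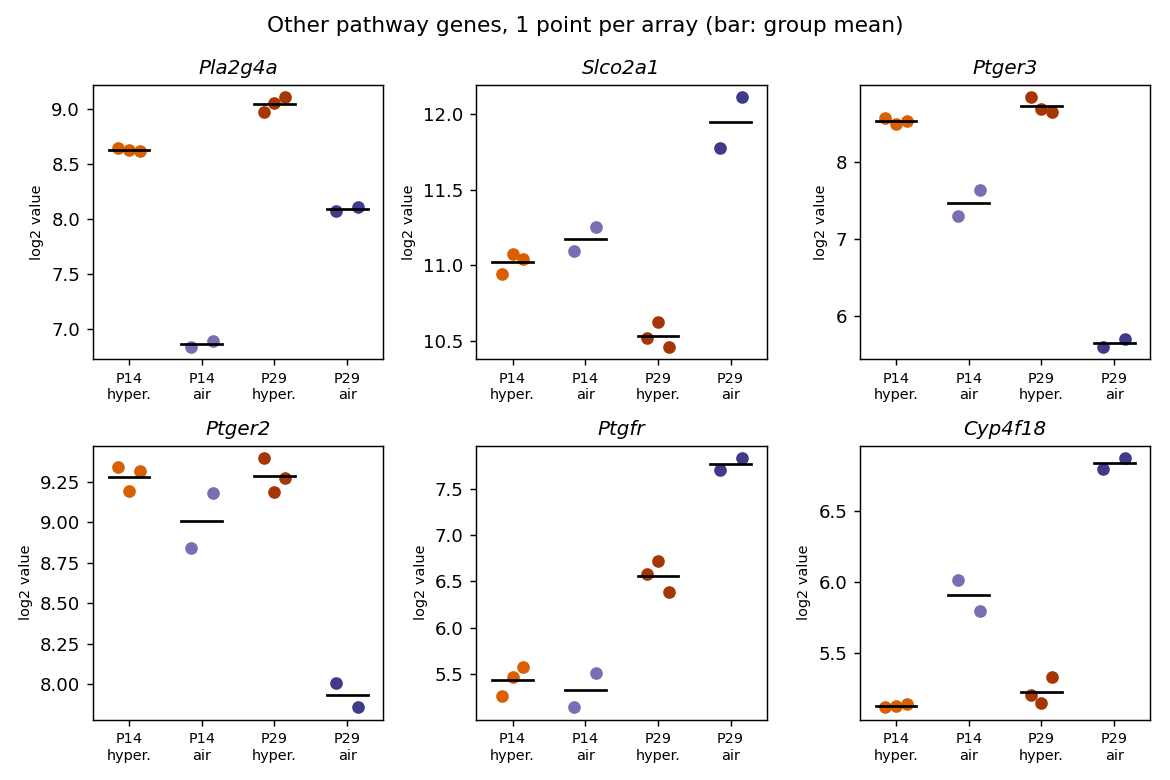
Log2 value (vertical axis) of 6 other pathway genes on the 10 arrays, 1 point per array, with bars at the group means. Ptger3 and Ptger2 are lower in P29 room air than in P14 room air, while the hyperoxia groups lie close together, and Slco2a1 is highest in P29 room air, at 11.78 and 12.11.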

How the data were processed

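Total lung RNA of 10 samples was labelled and hybridised to Affymetrix mouse arrays, per the labels' protocols. The authors deposited log2 values for 45101 probe sets, and Partek and GCRMA are named in the submitters' processing notes, with their settings not given in the sources used here. These log2 values were used as deposited. Symbols came from the platform annotation: 34945 probe sets had 1 symbol, 932 several and 9211 none. The brightest probe set per gene was kept where it reached a log2 value of 5 on at least 2 arrays, which left 14988 of 18193 genes. All 10 arrays were fitted together by group with limma 3.58.1 in R 4.3.3, with Benjamini-Hochberg adjustment over 14988 genes. The number of arrays limits the precision. Data were also simulated for the P14 comparison over 14988 genes, with 100 genes changed by 0.5 and 100 by 1. Of these changes 60% and 94% were called. With so few genes changed the adjusted threshold is stricter than in the real data, where 55% of genes were called. These shares therefore do not carry over to the real data. Members of the gene list, the wider list and the markers were chosen with earlier results of these data known. The wider genes given in full are those past 0.8, a size chosen after their values were seen. Ptger1, Dpep1, Mgst2, Ltb4r1, Cysltr1 and Pla2g2d, whose hyperoxia differences were smaller, are also named, by their leading probe set alone. Replicate numbers were not used as pairs: deviations of same-numbered samples correlated between -0.099 and 0.197. Alternatives changed the probe set rule, filter, normalization, variance model, arrays and added terms. Promoters are from RefSeq.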

Additional observations from a re-analysis of the deposited data

Results flagged for a closer look

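Each result here stood out because the hyperoxia effect differed between P29 and P14 by a tested difference (limma, adjusted over all genes), given as the P29 effect minus the P14 effect. Among the prostaglandin genes it was -1.61 for Ptgs2, 0.64 for Ptges and -1.26 for Hpgd. For Ptgs2 the call ended on the second probe set (-0.78, limma adjusted p = 0.0787). Among the further pathway genes with a called hyperoxia difference of at least 0.8 at either age, those with lower values at P29 gave values as follows: -0.81 for Pla2g4a, -1.01 for Ptgis, -1.25 for Slco2a1, -0.80 for Abcc4, -1.32 for Ptgfr, -0.83 for Cyp4f18 and -1.04 for Fpr2. It was 1.08 for Ptger2 and 2.00 for Ptger3. For Fpr2 the call ended without P14 room air replicate 2 (adjusted p = 0.0519). For Cyp4f18 it ended with the mean of its probe sets (-0.27, adjusted p = 0.1502), and its second probe set gave 0.29. For Ptges it ended with the mean of probe sets (0.33, adjusted p = 0.152). Below that size, Dpep1 (-0.99, adjusted p = 0.0128) and Mgst2 (-0.94, adjusted p = 0.0228) also had a lower effect at P29. No group was large enough for a test of single outlying arrays.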

How the results depend on the processing

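Ptgs2 and Ptger4 were called higher at both ages under each alternative run, except on the second Ptgs2 probe set (0.36 at P14, adjusted p = 0.131). The count lower at P14 ran between 4 and 7 with 1 array left out and was 2 with the actin term. With 1 array left out, the count lower at P29 ran between 5 and 6. The genes with a higher effect at P29 than at P14 ran between 0 and 2, and numbered 0 with the mean of probe sets, the probe set of largest interquartile range or P29 hyperoxia replicate 2 alone. In the last case the lone array is assumed to vary like the other groups, and the Ptges value was still 0.47. The genes lower at P29 in hyperoxia ran between 0 and 1, and were 0 with the mean of probe sets or P29 hyperoxia replicate 2 alone, while 5 were higher with the Y-linked term. In room air the count lower ran between 0 and 1, and was 0 with the mean of probe sets, the largest interquartile range, 75th percentile scaling, the actin term and the Y-linked term. The replicate block, of numbers that share only a number, gave 0 there too. Signs turned with the actin term for Ltc4s (0.062 at P14, 0.42 at P29), Ptgis (-0.18 at P14) and Ptgfr (-0.37 at P14). They turned on other probe sets for Ptgs2 (-0.42 at P29), Hpgd (0.11 at P14), Ptgds (0.037 in hyperoxia and 0.024 in room air between ages) and Ptges (0.00026 in room air between ages, also by largest interquartile range). Ptgds gave 0.017 in hyperoxia between ages with the mean of probe sets. Quantile normalization gave -0.014 for Abcc4 at P29 and -0.022 for the Ptger4 difference; 75th percentile scaling gave -0.073, -0.012 for Ptger4, -0.0089 for Ptgds and -0.0097 for Alox15 in hyperoxia. The Y-linked term gave -0.0019 for Alox15 there. With 1 array left out, Ptgfr at P14 ran between -0.078 and 0.29, and the differences of Ptgds between -0.074 and 0.11, Ptger4 between -0.17 and 0.21 and Alox15 between -0.43 and 0.054. Between ages Ptgds ran from -0.10 to 0.089 in hyperoxia and -0.11 to 0.060 in room air, and Alox15 from -0.045 to 0.090 in hyperoxia and -0.046 to 0.43 in room air. The cause was not tested. Fits of the compared groups alone give no value for the difference of effects. Scaling to the 75th percentile moved the median of all genes at P29 to -0.09, against 0.04. With 2 room-air arrays per age, small effects such as that of Ptgds rest on single arrays.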
